A study of Mus musculus with 6 samples.

Results

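Claudins are the membrane proteins that build the strands of tight junctions, and 10 of them (Cldn3, Cldn4, Cldn5, Cldn6, Cldn7, Cldn9, Cldn10, Cldn11, Cldn12 and Cldn23) were followed here by their Ensembl identifiers in a table of 55416 genes. They were chosen by name from 36 protein-coding claudin genes in the table. RNA-seq was performed on epiblast-like cells (EpiLCs), the formative cells that mouse embryonic stem cells reach after 48 h of differentiation, with 3 libraries of WT cells and 3 of Oct6 KO cells. Parental 46C cells, which carry a GFP reporter in the neural gene Sox1, served as WT, and 1 clone derived from them, with an insertion on both alleles of Oct6 (gene symbol Pou3f1), served as KO. Both were grown in N2B27 with 1% KSR (a serum replacement), bFGF and Activin A on fibronectin. The WT libraries summed to 13202494, 10995505 and 14680930 counts and the KO libraries to 12468807, 13332588 and 13213843, in the order of replicates 1 to 3 that is kept below.

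A claudin spans the membrane, and its outer loops meet those of claudins on the neighbouring cell, so that the set of claudins a cell makes decides which ions pass between cells. Some members seal the space, others form channels in it, and most bind the scaffold proteins of the ZO family through their cytoplasmic tail. Formative pluripotent cells resemble the epiblast of the embryo soon after implantation and carry claudins typical of simple epithelia. By contrast, Cldn5 is best known from the endothelium of blood vessels and Cldn11 from myelin and the testis.

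The targeted gene was read before the claudins. Pou3f1 had 161, 143 and 122 CPM (normalized counts, relative to the TMM-normalized size of the library over the genes tested) in the WT libraries and 127, 141 and 128 CPM in the KO libraries. The groups overlapped, and the log2 fold change of KO over WT was −0.10 (SE 0.11, adjusted p = 0.57; here and below, p comes from the quasi-likelihood test of edgeR after Benjamini-Hochberg adjustment over all genes tested). A count over the whole gene does not read a small insertion, so that this value does not check the genotype. The EpiLC markers Pou5f1, Dnmt3b, Utf1, Sox2, Fgf5 and Otx2 all passed the filter on low counts; Sox2 (with overlapping groups), Fgf5 and Otx2 were called higher in KO EpiLCs, where 11.8% of all genes tested were, and the other 3 were not called.

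Of the 10 claudins, 7 passed the filter on low counts and 3 did not. At an adjusted p below 0.1, 5 of the 7 were called in either direction, where 24.3% of the 15746 genes tested were called. Cldn4, Cldn6, Cldn7 and Cldn9 were lower in KO EpiLCs, in a background of 12.5% of genes called lower, and Cldn5 was higher, in a background of 11.8% called higher. With a log2 fold change of 1 or more in either direction as well, Cldn5, Cldn6, Cldn7 and Cldn9 were left, and 6.21% of all genes passed both thresholds. Cldn3 and Cldn12 were not called. In bulk samples, fewer cells of a type and less RNA per cell cannot be told apart, so that each of these levels is a mean over the whole culture.

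Levels were compared between claudins only per length, as CPM per kb of the exons of the gene. In WT EpiLCs the most abundant claudin was Cldn4 with 82.0 ± 4.49 CPM per kb (SD, n = 3), followed by Cldn6 with 57.3 ± 4.66 CPM per kb. Cldn7 and Cldn3 came next with 17.6 ± 1.28 and 15.2 ± 2.30 CPM per kb, and their libraries overlapped. Cldn12 with 6.04 ± 0.164 CPM per kb could likewise not be placed above Cldn5 with 5.90 ± 1.16 CPM per kb, and Cldn9 was the lowest of the 7 with 4.07 ± 0.954 CPM per kb. In KO EpiLCs Cldn4 still led with 50.8 ± 8.68 CPM per kb. Cldn6 with 26.5 ± 2.24 CPM per kb and Cldn5 with 23.4 ± 2.29 CPM per kb then overlapped, and Cldn3 with 14.8 ± 4.35 CPM per kb lay above Cldn7 with 6.49 ± 1.62 CPM per kb. Cldn12 with 5.38 ± 0.104 CPM per kb overlapped Cldn7, and Cldn9 with 1.17 ± 0.0179 CPM per kb was again the lowest. The order depended on the length for Cldn7 and Cldn12, whose annotated transcripts differ: per kb of the canonical transcript, a scale chosen after seeing the data, the WT levels of Cldn7 and Cldn12 were 27.8 and 12.3 CPM per kb, and in KO EpiLCs Cldn12 with 10.9 CPM per kb overlapped both Cldn7 with 10.3 CPM per kb and Cldn3, and Cldn3 no longer lay clear of Cldn7. On that scale Cldn6 with 28.2 CPM per kb no longer overlapped Cldn5 in KO EpiLCs.

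Cldn4, Cldn6 and Cldn7 are claudins of simple epithelia. Cldn4 tightens junctions of kidney and other epithelia and is bound, like Cldn3, by the enterotoxin of Clostridium perfringens. It lies on the minus strand of chromosome 5 (GRCm39, chr5:134973973-134975788). Its level was 156, 140.1 and 151 CPM in the WT libraries and 84.1, 82.2 and 110.4 CPM in the KO libraries. The 3 KO libraries lay below the 3 WT libraries, with KO replicate 3 the nearest to them. The level was 149 ± 8.15 CPM in WT and 92.3 ± 15.8 CPM in KO, 1.61-fold lower (log2 fold change −0.69, SE 0.11, edgeR adjusted p = 0.00024).

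Cldn6 is a claudin of embryonic epithelia and of undifferentiated pluripotent cells that is silent in most adult tissues. Its gene lies on chromosome 17 (GRCm39, chr17:23898223-23901420, plus strand), with Cldn9 on the other strand at chr17:23901558-23903000, so that the 3′ ends of both genes are 137 bases apart. The Cldn6 level was 107, 97.8 and 91.0 CPM in the WT libraries and 43.1, 43.8 and 50.1 CPM in the KO libraries. Every WT library was higher than every KO library. The means of 98.6 ± 8.02 and 45.7 ± 3.85 CPM differed 2.16-fold (log2 fold change −1.11, SE 0.11, edgeR adjusted p = 1.1e-06). Cldn9, the close relative of Cldn6 that is required in the inner ear, had 82, 78 and 65 counts in the WT libraries and 21, 22 and 22 in the KO libraries. These counts did not overlap either, and at 5.88 ± 1.38 CPM in WT and 1.68 ± 0.0258 CPM in KO Cldn9 had the largest decrease of the 7 claudins tested, 3.46-fold (log2 fold change −1.79, SE 0.28, edgeR adjusted p = 0.00014). None of 1718 distinct stretches of 50 bases in the annotated Cldn6 transcripts and none of 1394 in those of Cldn9 occurred in transcripts of another gene, on either strand.

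Cldn7, unusual among claudins for its presence along the lateral membrane where it binds Epcam, lies on chromosome 11 (GRCm39, chr11:69852648-69858711, plus strand). Its level was 34.7, 36.8 and 40.0 CPM in the WT libraries and 10.3, 13.7 and 17.1 CPM in the KO libraries. The highest KO library was below the lowest WT library. The level fell from 37.2 ± 2.69 to 13.7 ± 3.43 CPM, 2.71-fold (log2 fold change −1.44, SE 0.16, edgeR adjusted p = 4.4e-06). The last 543 bases of the gene overlap Elp5 on the opposite strand, and 13.1% of the stretches of 50 bases in Cldn7 transcripts occurred in the antisense of Elp5 transcripts. The use of strand in the counting is not given in the sources used here, so that reads from this stretch could belong to either gene. Elp5 itself had 59.3 ± 5.93 CPM in WT and 52.6 ± 3.45 CPM in KO, and was not called (log2 fold change −0.17, SE 0.11, edgeR adjusted p = 0.32).

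**Figure D1:**
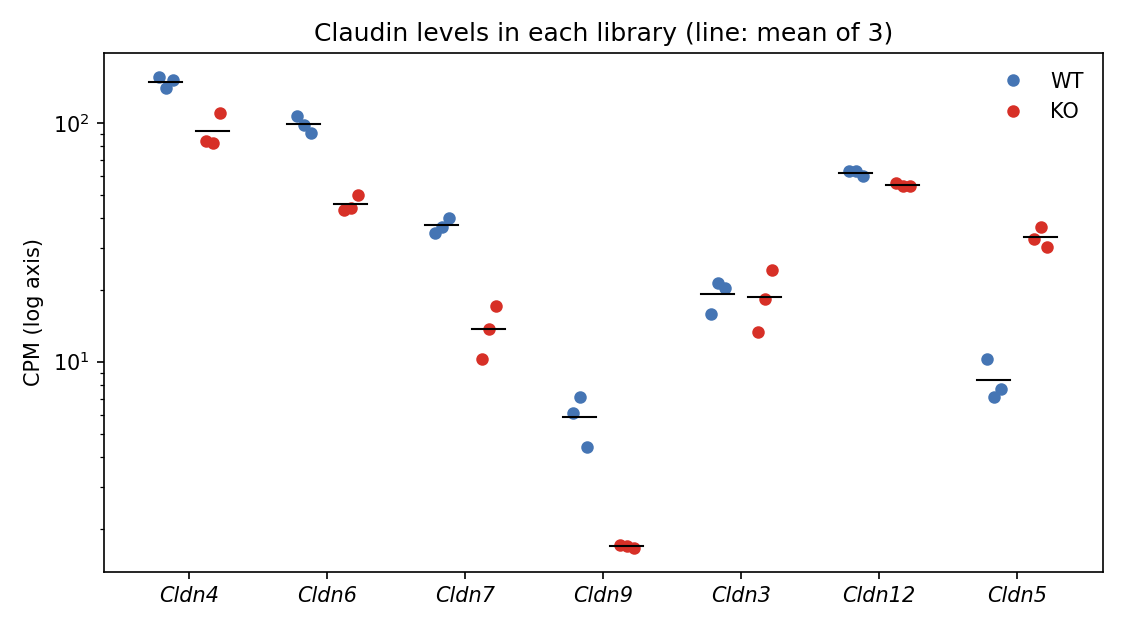
Level of each of the 7 claudins tested, in CPM on a log axis, in the 3 WT (blue) and 3 KO (red) libraries, with the mean of each group as a line. Cldn4, Cldn6, Cldn7 and Cldn9 lie lower in KO, Cldn3 overlaps, Cldn12 lies slightly lower without being called, and Cldn5 lies higher, at 30.2 to 36.6 CPM against 7.12 to 10.2 CPM.

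The promoters of Cldn4, Cldn6 and Cldn7 are shown because these genes were lower together, and that of Cldn5 because it was higher. They are the 250 bases before the start of transcription from RefSeq (GRCm38.p6), 5′ to 3′ on the strand of the gene, for which 8 of the 10 claudins matched an entry with 12 starts between them. Cldn9 and Cldn23 had no entry. Capitals mark CAGGTG or its reverse complement CACCTG, the E-box letters that Snai and Zeb factors are known to bind. The windows are chr5:134946935-134947184 (minus strand) for Cldn4, chr17:23679115-23679364 (plus strand) for Cldn6, chr11:69965171-69965420 (plus strand) for the more downstream of 2 Cldn7 starts, and chr16:18776597-18776846 (plus strand) for Cldn5.
Cldn4: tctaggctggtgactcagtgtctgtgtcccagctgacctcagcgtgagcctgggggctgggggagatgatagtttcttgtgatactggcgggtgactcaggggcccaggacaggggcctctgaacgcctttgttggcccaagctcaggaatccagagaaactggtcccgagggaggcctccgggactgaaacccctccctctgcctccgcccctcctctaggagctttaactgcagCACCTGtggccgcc
Cldn6: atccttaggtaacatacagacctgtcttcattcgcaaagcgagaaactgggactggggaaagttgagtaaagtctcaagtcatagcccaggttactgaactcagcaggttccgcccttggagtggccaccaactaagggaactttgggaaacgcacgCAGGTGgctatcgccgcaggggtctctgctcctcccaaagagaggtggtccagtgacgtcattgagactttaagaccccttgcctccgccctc
Cldn7: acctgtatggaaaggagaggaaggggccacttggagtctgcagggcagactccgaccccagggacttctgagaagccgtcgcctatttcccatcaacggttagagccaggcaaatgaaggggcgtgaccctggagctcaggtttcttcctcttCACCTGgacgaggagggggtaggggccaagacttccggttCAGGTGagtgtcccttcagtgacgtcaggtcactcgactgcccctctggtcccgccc
Cldn5: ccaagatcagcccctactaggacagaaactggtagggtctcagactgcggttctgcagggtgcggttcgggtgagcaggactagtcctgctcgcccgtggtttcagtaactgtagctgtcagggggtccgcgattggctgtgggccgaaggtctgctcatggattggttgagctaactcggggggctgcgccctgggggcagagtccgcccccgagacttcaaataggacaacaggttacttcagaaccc

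The E-box letters were in 3 of the 12 claudin windows and in 17.2% of all 32851 promoter windows of the same length, on either strand. No test was run between the claudin windows and all windows. The letters occurred 1 time in the Cldn4 window, 1 time in that of Cldn6 and 2 times in that of Cldn7. The other 9 windows, without them, include that of Cldn5 and that of the other Cldn7 start. The octamer ATGCAAAT, the letters that POU factors such as Oct6 are known to bind, was searched on both strands as well and was in 0 of the 12 claudin windows and in 1.6% of all windows. AACCGGTT, which reads the same on both strands and is known from grainyhead-like factors, was in 0 of the 12 claudin windows and in 0.116% of all. A match is a description of the sequence only.

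Cldn3 and Cldn12, both on chromosome 5, differed little between the genotypes. Cldn3, a sealing claudin whose gene lies 39.3 kb from that of Cldn4, had 15.8, 21.3 and 20.3 CPM in the WT libraries and 13.3, 18.3 and 24.2 CPM in the KO libraries. The groups overlapped, with KO replicates 1 and 3 at the lowest and the highest level of all 6 libraries (log2 fold change −0.04, SE 0.18, edgeR adjusted p = 0.93). The Cldn3 gene lies wholly within Wbscr25, a noncoding gene on the opposite strand with 13 counts over the 6 libraries. In the antisense of Wbscr25 transcripts, 67.7% of the stretches of 50 bases in Cldn3 transcripts occurred. As for Cldn7, the use of strand in the counting is not given, so that reads there could belong to either gene. Cldn12, which unlike most claudins lacks the tail that binds ZO proteins, had 62.8, 62.7 and 59.9 CPM in WT and 56.2, 54.2 and 54.6 CPM in KO. The 3 KO libraries were all lower, but by a log2 fold change of −0.17 (SE 0.10) that did not pass the test (edgeR adjusted p = 0.28). Chromosome 5 as a whole, with 1026 genes tested, had a median log2 fold change of −0.01. The medians of chromosome 11, with Cldn7, and of chromosome 17, with Cldn6 and Cldn9, were −0.02 and −0.01.

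The claudin that was higher in KO EpiLCs was Cldn5, the sealing claudin of vessel walls and of the blood-brain barrier, on chromosome 16 (GRCm39, chr16:18595597-18597012, plus strand). Its level was 10.2, 7.12 and 7.71 CPM in the WT libraries and 32.7, 36.6 and 30.2 CPM in the KO libraries. All 3 KO libraries were above all 3 WT libraries, and the groups did not overlap. The level rose from 8.35 ± 1.65 to 33.2 ± 3.24 CPM, 3.96-fold (log2 fold change +1.98, SE 0.16, edgeR adjusted p = 1.2e-07). No stretch of 50 bases in the Cldn5 transcript occurred in another gene.

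Cldn5 was then read against its chromosome, because chromosome 16 was higher in KO EpiLCs as a whole. Of 471 genes tested on it, 308 were called higher, or 65.4%, and 2 were called lower. The 470 genes other than Cldn5 had a median log2 fold change of 0.55, with quartiles of 0.34 and 0.73, and lay 0.55 above the median of all genes tested. This is a shift of 1.46-fold. Cldn5 ranked 6th among the 471, and 98.9% of the other genes lay below it. With the shift taken as an offset for all chromosome 16 genes in the KO libraries, Cldn5 remained 2.71-fold higher (log2 fold change +1.44, SE 0.16, edgeR adjusted p = 5.2e-06). The shift and the genotype share the KO clone and cannot be told apart in these libraries.

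**Figure D2:**
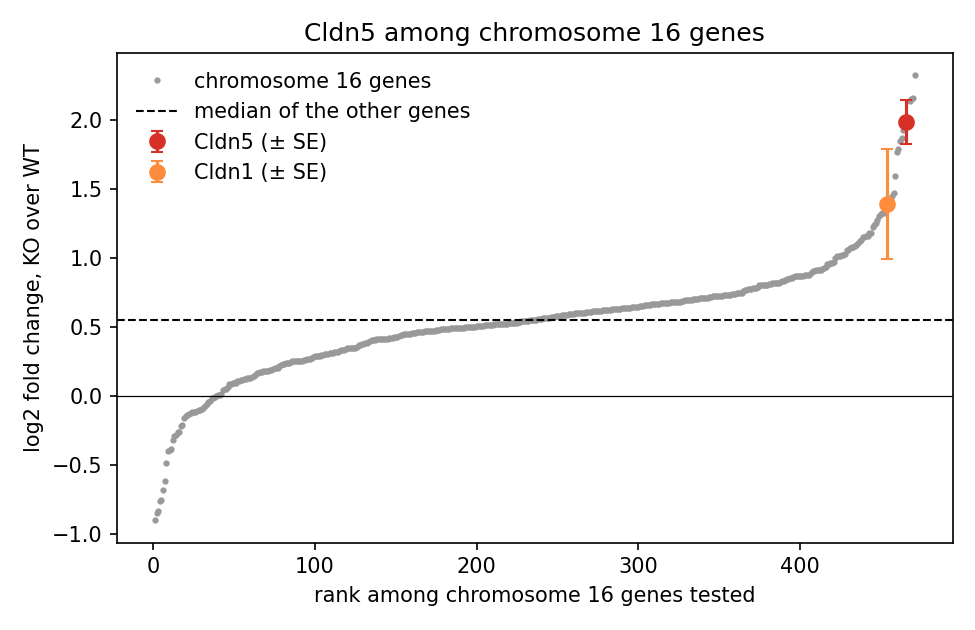
Log2 fold change of KO over WT for the 471 chromosome 16 genes tested, in rank order, with their median (dashed line) and with Cldn5 and Cldn1 marked with their SE. Most genes lie above 0, the median of the genes other than Cldn5 is 0.55, and Cldn5 is at +1.98 near the right end.

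The 5 genes above Cldn5 were of low abundance. Grin2a, with 0.650 ± 0.410 CPM in WT and 3.43 ± 0.521 CPM in KO (log2 fold change +2.32), was the only gene among them with an average log2 CPM of at least 1. The other 4, which were named after their values were seen, were 2010309G21Rik, Atp13a4, Stxbp5l and Gm49455, with log2 fold changes from +1.99 to +2.16 and 51 to 119 counts over the 6 libraries, against 1609 for Cldn5.

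The genes next to Cldn5 differed less than Cldn5 did. Cdc45, a part of the replicative helicase whose gene lies 2182 bases from Cldn5 on the opposite strand, had 74.7, 86.4 and 83.9 CPM in the WT libraries and 141, 146 and 139 CPM in the KO libraries. This was an increase of 1.74-fold (log2 fold change +0.80, SE 0.10, edgeR adjusted p = 1.4e-05), the largest among the 5 nearest tested genes on each side of Cldn5. These 10 genes had log2 fold changes from 0.25 to 0.80 with a median of 0.49, and 6 of them (Gnb1l, Rtl10, Cdc45, Ufd1, Mrpl40 and Hira) were called higher. Over the 20 nearest tested genes, within 853 kb, the median was 0.53 and 13 were called higher, and with that median as the offset Cldn5 was +1.45 above its surroundings (SE 0.16, edgeR adjusted p = 4.7e-06). The one gene among the 20 with a larger increase was 2010309G21Rik.

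**Figure D3:**
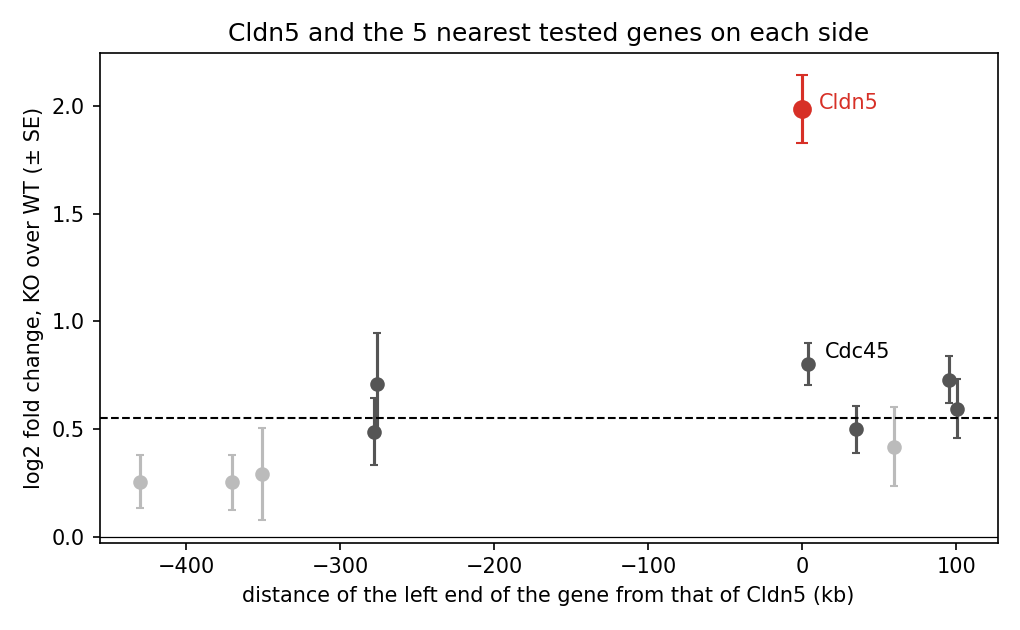
Log2 fold change of KO over WT with its SE for Cldn5 (red) and the 5 nearest tested genes on each side, against the distance of their left ends on the chromosome in kb. Dark points were called, light points were not, the dashed line is the median of the other chromosome 16 genes at 0.55, and Cldn5 stands at +1.98 and its neighbours at 0.25 to 0.80.

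Of the 3 members that did not pass the filter, Cldn10, which forms ion-selective channels in kidney tubules, had 3, 1 and 5 counts in the WT libraries and 3, 2 and 0 in the KO libraries. Cldn11, the claudin of oligodendrocyte myelin, had 0, 2 and 3 counts in WT and 1, 1 and 0 in KO. Cldn23, a claudin of the gut surface, had 3, 0 and 4 counts in WT and 3, 4 and 7 in KO. With so few counts, only a large difference would be detectable, and none of the 3 was called when the filter was left out.

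Among the other 26 claudin genes, 12 had no counts and 3 passed the filter. Cldn1, the barrier claudin of the skin, also lies on chromosome 16, 7.58 Mb from Cldn5, and had 13, 11 and 13 counts in the WT libraries and 48, 24 and 24 in the KO libraries. Its increase (log2 fold change +1.39, SE 0.40, edgeR adjusted p = 0.018) was not past the threshold once the chromosome 16 shift was taken as an offset (log2 fold change +0.85, edgeR adjusted p = 0.17), nor without KO replicate 1 (log2 fold change +0.94, edgeR adjusted p = 0.18). Cldn2, which forms channels for cations and water, lies on the X chromosome and had 6, 9 and 9 counts in WT and 17, 19 and 35 in KO. It was called higher (log2 fold change +1.55, SE 0.44, edgeR adjusted p = 0.017), but not without KO replicate 3 (log2 fold change +1.19, edgeR adjusted p = 0.14). Cldn15, a channel claudin of the gut, was not called (log2 fold change +0.25, SE 0.56, edgeR adjusted p = 0.81), and Cldn8, Cldn34c1 and Cldn13 had 23, 17 and 11 counts over the 6 libraries.

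The 10 claudins together had 393, 373 and 375 CPM in the WT libraries and 242, 251 and 289 CPM in the KO libraries. The groups did not overlap, with KO replicate 3 the highest of the KO libraries. The total of 380.4 ± 11.2 CPM in WT was 1.46 times that of 261 ± 24.9 CPM in KO (p = 0.10, two-sided exact permutation test, the smallest value that 3 against 3 libraries allow). Cldn5 offset a part of the decrease: without it the total was 372 ± 9.59 CPM in WT and 227 ± 27.1 CPM in KO. Cldn4, Cldn6, Cldn7 and Cldn9 summed to 291 ± 11.8 CPM in WT and 153 ± 22.6 CPM in KO, and Cldn3 and Cldn12 to 80.9 ± 2.73 and 73.6 ± 4.75 CPM. In every library the 10 claudins held at least 97.2% of the counts of all claudin genes, and they made up 0.0372% to 0.0399% of all counts in WT and 0.0239% to 0.0291% in KO.

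The make-up of these counts differed between the genotypes, and not for Cldn5 and Cldn6 alone. Cldn5 held 2.60%, 1.91% and 2.06% of the claudin counts in the WT libraries and 13.5%, 14.6% and 10.5% in the KO libraries. Cldn6 held 27.2%, 26.2% and 24.3% in WT and 17.8%, 17.5% and 17.3% in KO. Neither share overlapped between the groups: that of Cldn5 went from 2.19 ± 0.364% to 12.9 ± 2.14% and that of Cldn6 from 25.9 ± 1.48% to 17.5 ± 0.250% (each p = 0.10, two-sided exact permutation test, not adjusted for the number of shares). Cldn4 kept the largest share in every library, with 37.5% to 40.2% in WT and 32.7% to 38.2% in KO. The shares of Cldn7 and Cldn9 were 9.79 ± 0.934% and 1.55 ± 0.367% in WT and 5.21 ± 0.864% and 0.651 ± 0.0688% in KO. Those of Cldn12 and Cldn3 were 16.3 ± 0.476% and 5.05 ± 0.897% in WT and 21.2 ± 2.19% and 7.05 ± 1.46% in KO. Shares are parts of a total that was smaller in KO, so that a share can rise without its gene. The Cldn12 level itself was 61.8 CPM in WT and 55.0 CPM in KO. Counts grow with length, and of the summed CPM per kb Cldn5 held 3.12% in WT and 18.4% in KO, Cldn6 30.4% and 20.6%, Cldn3 8.10% and 11.3%, and Cldn12 3.21% and 4.22%. Per kb of exon, Cldn6 was 8.61, 11.3 and 9.71 times as abundant as Cldn5 in the WT libraries and 1.09, 0.984 and 1.36 times in the KO libraries.

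**Figure D4:**
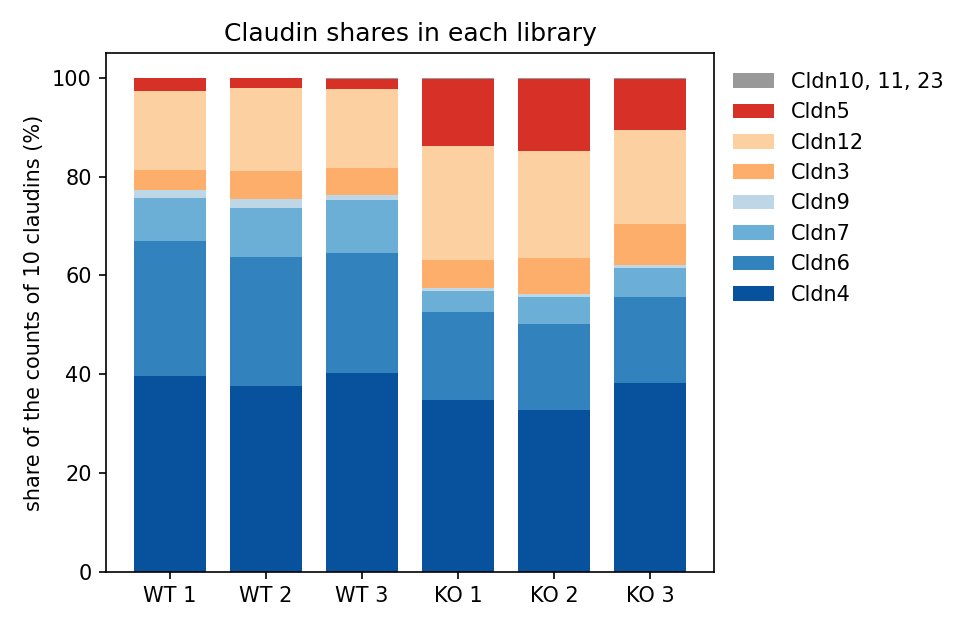
Share of each claudin in the summed counts of the 10 claudins, in percent, stacked for each of the 3 WT and 3 KO libraries. The Cldn5 share (red) is 1.91% to 2.60% in WT and 10.5% to 14.6% in KO, and the shares of Cldn6, Cldn7 and Cldn9 are smaller in KO.

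Claudins are anchored and flanked by other proteins of the tight junction, and all 17 genes listed for these partners passed the filter. None was called higher and 7 were called lower, where 11.8% and 12.5% of all genes tested were, with a median log2 fold change of −0.19 against 0.00 for all genes. DESeq2 also called 0 of the partners higher and 7 lower, where it called 1718 higher and 1788 lower of 15746 genes. Marveld3, which spans the membrane within tight junctions, had 125, 73 and 94 counts in the WT libraries and 26, 8 and 13 in the KO libraries (log2 fold change −2.60, SE 0.34, edgeR adjusted p = 2.5e-05). Tjp3, which encodes the scaffold ZO-3, had 22.5, 22.6 and 24.7 CPM in WT and 8.10, 11.5 and 12.9 CPM in KO (log2 fold change −1.10, SE 0.17, edgeR adjusted p = 0.00011). Neither gene overlapped between the groups, and both passed a log2 fold change of 1 in size. Without KO replicate 1, Tjp3 was still called but fell short of that size (log2 fold change −0.93, edgeR adjusted p = 0.00076). The decreases of Ocln, Jam3, Cgnl1, Patj and Pard6b, which were named after their values were seen, ran from −0.34 to −0.81, and the groups of Ocln overlapped. Tjp1, the gene of the scaffold ZO-1, was not called, with a log2 fold change of −0.19 (SE 0.12).

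Epcam holds Cldn7 at the lateral membrane, and the protease matriptase (St14) cleaves it, under the control of the inhibitors Spint1 and Spint2. Epcam had 391 CPM in WT and 354 CPM in KO and was not called. Spint2, named after its value was seen, was called lower with overlapping groups (log2 fold change −0.43, SE 0.15, edgeR adjusted p = 0.057).

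Of 11 genes listed as activators of epithelial claudins, 2 were called higher and 0 lower, in a background of 11.8% and 12.5% of all genes. DESeq2 also called 2 of the list higher and 0 lower, where it called 1718 higher and 1788 lower of 15746 genes. The 2 activators called were the grainyhead-like factors Grhl2, with 79.0 ± 2.32 CPM in WT and 121 ± 7.58 CPM in KO (log2 fold change +0.61, SE 0.10, edgeR adjusted p = 0.00017), and Grhl3 (log2 fold change +0.84, SE 0.20, edgeR adjusted p = 0.0052), both named after their values were seen. Of 5 listed repressors 3 passed the filter, while Snai1 and Snai2, with 28 and 23 counts over the 6 libraries, did not. The 5 summed to 6.94 to 9.03 CPM in WT and 12.4 to 13.2 CPM in KO, without overlap. Most of this sum came from Twist1 and Zeb1. Of the 3 tested, edgeR called 1 higher and 0 lower, where 11.8% and 12.5% of all genes tested were. DESeq2 also called 1 higher and 0 lower, where it called 1718 higher and 1788 lower of 15746 genes. Zeb1 and Zeb2 had log2 fold changes of +0.57 (SE 0.27, edgeR adjusted p = 0.17) and +1.22 (SE 0.56, edgeR adjusted p = 0.15), with overlapping groups. Twist1 was called, with 2.76, 3.83 and 3.45 CPM in WT and 5.02, 5.79 and 6.39 CPM in KO (log2 fold change +0.78, SE 0.24, edgeR adjusted p = 0.026), and not without KO replicate 3 (log2 fold change +0.70, edgeR adjusted p = 0.11).

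**Figure D5:**
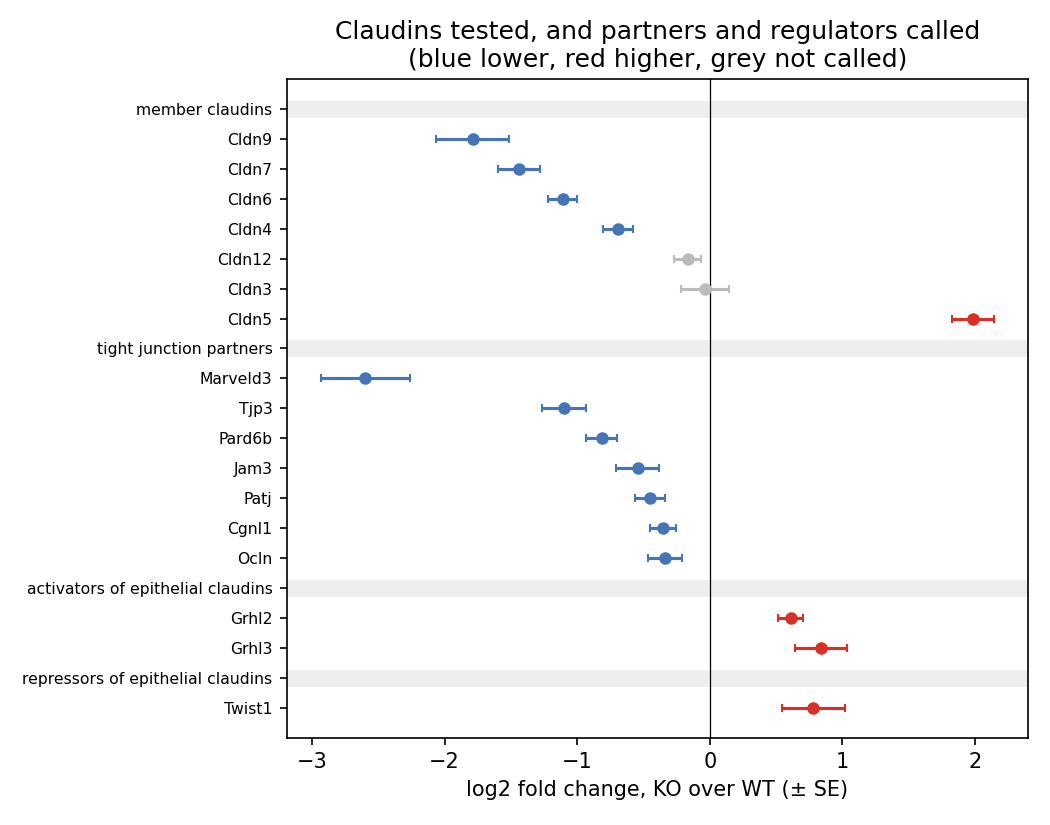
Log2 fold change of KO over WT with its SE for the 7 claudins tested and for the genes called among the tight junction partners and the activators and repressors of epithelial claudins. Blue genes were called lower, red genes higher and grey claudins not at all, and the 7 partners called all lie lower.

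Since Cldn5 is an endothelial gene, markers of endothelium were read beside it. Of 8 markers, 4 passed the filter and 2 were called higher, where 11.8% of all genes tested were: Kdr, with 6, 3 and 7 counts in the WT libraries and 45, 23 and 31 in the KO libraries (log2 fold change +2.64, SE 0.45, edgeR adjusted p = 0.00032), and Tek (log2 fold change +0.90, SE 0.13, edgeR adjusted p = 7e-05). The 8 summed to 69.2, 69.9 and 71.0 CPM in WT and to 90.6, 89.3 and 103 CPM in KO, and Pecam1 was not called. Over the 6 libraries the 8 markers ranged widely, with 3860 counts for Pecam1, 2214 for Tek and 157 for Esam, and with 8 for Cdh5, 3 for Erg and 0 for Emcn. Of 6 regulators of Cldn5 in endothelium, 3 passed the filter and 0 were called in edgeR, where 24.3% of all genes were. DESeq2 also called 0 of them, where it called 3506 of 15746 genes. The part of Kdr and Tek in the Cldn5 result was not tested.

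Markers of other cell types were read as well, most of them by few genes. Of 5 trophoblast markers, which include genes of an epithelium, Krt7 was the 1 tested and was lower (log2 fold change −1.01), where 12.5% of all genes were called lower. The list summed to 7.51 ± 1.05 CPM in WT and 3.61 ± 0.452 CPM in KO, of which Krt7 alone held 6.79 and 3.36 CPM. Of 6 primitive endoderm markers 4 were tested and 2 were called higher, where 11.8% of all genes were: Gata6, and Pdgfra with overlapping groups and an edgeR adjusted p of 0.099. DESeq2 called 1 gene of the list higher, where it called 1718 of 15746 genes higher. The list summed to 8.06, 6.11 and 7.03 CPM in WT and 13.7, 6.17 and 17.6 CPM in KO, so that its groups overlapped at KO replicate 2. Of 3 neural progenitor markers Sox1 was the 1 tested and was lower (log2 fold change −1.78), against the same 12.5% of all genes. The part of these lists in the claudin levels was not tested.

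As a description over the 6 libraries, the genes whose log2 CPM most resembled that of Cldn5, among 9860 genes with an average log2 CPM of at least 3, were Kpna1, Dppa2 and D1Pas1, with Pearson correlations of 0.9977, 0.9966 and 0.9965. Kpna1 and Dppa2 also lie on chromosome 16. For Cldn6 they were 0610030E20Rik, Ncapd2 and Tpm2, with correlations of 0.9988, 0.9978 and 0.9968, and the first 2 lie on chromosome 6. There 356 of 773 genes tested were called lower in KO EpiLCs, with a median log2 fold change of −0.40. All 6 libraries fall into the 2 genotypes, which these correlations follow.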

How the data were processed

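The values are raw counts per gene that the authors deposited for 3 WT and 3 Oct6 KO EpiLC samples, from a stranded library kit. Read quality was examined in FastQC, trimming was done by Fastp, and STAR in 2 passes placed the reads on GRCm39. STAR's version, the annotation release, the use of strand and the treatment of reads with several matches are not given in the sources used here. Identifiers were matched to GENCODE M39 for symbols, positions and exon lengths; 54749 of 55416 matched and 667, with 0.0602% of the counts, did not. Promoters came from RefSeq (GRCm38.p6). The whole table was fitted in R 4.3.3 with edgeR 4.0.16: filterByExpr with a minimum count of 10 (15746 genes), TMM, the quasi-likelihood test on genotype alone, Benjamini-Hochberg adjustment, and a call at an adjusted p below 0.1. Standard errors came from the F statistic. The common dispersion of 0.0137, a biological coefficient of variation of 11.7%, sets the precision with 3 libraries a group. Totals and shares were compared by exact permutation tests. The method was tested on simulated counts. Alternatives were DESeq2 1.42.0, other size factors, filters and thresholds, a replicate block and each library left out.

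The members and the lists were chosen with earlier results of these data known. Genes were named by a rule: the 10 claudins, other claudins with at least 10 counts, and listed genes with an adjusted p below 0.1 and a log2 fold change of 1 or more in either direction. The rule also named the genes nearest to Cldn5 and those of chromosome 16 above it with an average log2 CPM of at least 1. The 3 genes most like Cldn5 and Cldn6, and Pou3f1, were named by it as well. Other genes were named after their values were seen. Some genes that met the rule are not reported here. In a first look at the promoters, letters other than the 3 motifs reported were searched as well. The submitters describe the replicates as paired. Deviations from the group means of 13228 genes had correlations of 0.257, 0.310 and 0.124 between libraries of the same number and −0.234 to −0.0369 between other numbers, so that the numbers pair the samples. Libraries of a group were not copies, with a chi-square per degree of freedom of 6.94 to 11.8.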

Additional observations from a re-analysis of the deposited data

How the results depend on the processing

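The 5 claudins called (Cldn4, Cldn5, Cldn6, Cldn7 and Cldn9) were called in the same directions under every alternative run: RLE size factors, library totals alone, size factors without chromosomes 6 and 16, DESeq2, a table without filter, a filter on 10 counts in all libraries, a threshold of 0.05 for adjusted p, and runs without single libraries. Leaving out a library gave log2 fold changes of −0.84 to −0.61 for Cldn4, −1.18 to −1.05 for Cldn6, −1.63 to −1.27 for Cldn7, −1.97 to −1.64 for Cldn9, 1.88 to 2.15 for Cldn5 and 1.34 to 1.59 for Cldn5 beyond the chromosome 16 shift. Cldn3, which was not called, ran from −0.27 to 0.15, so that its sign depended on the library. The number of genes called with a log2 fold change of 1 or more in either direction was 978 and fell to 584 when all libraries had to hold 10 counts, a filter under which 13878 genes were tested. With a replicate block, the paired fit called 4764 genes in edgeR, against 3833 without it, and 3164 in DESeq2, against 3506 without it, and changed no call among the claudins. The difference of the claudin total was −120 CPM and ran from −134 to −110.4 CPM with a library left out. Within pairs, an exact sign permutation gave p = 0.25 for the total and for the shares of Cldn5 and Cldn6, the smallest value that 3 pairs allow. With 3 libraries a group and 1 KO clone, differences between clones and the effect of genotype cannot be told apart, and Cldn10, Cldn11 and Cldn23 had too few counts to pass the filter.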
